A study of Mus musculus with 11 samples.

Results

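The 31 microglia genes described here were a fixed list of genes with high or selective expression in microglia, found in the deposited count tables by matching Ensembl identifiers to gene symbols of GENCODE M21 (GRCm38). All 31 were among the 38293 genes of the tables, and all 31 were among the 20589 genes tested, those whose counts summed to 10 or more over all mice. RNA of the whole hippocampus was sequenced from 11 wildtype F1 mice of the cross 129S6/SvEv x C57BL/6J at 14 weeks of age. The CD group held 6 mice (3 males and 3 females) whose dams ate 2.3 mg folic acid per kg diet before conception, and the FD group held 5 mice (2 males and 3 females) whose dams ate 40 mg per kg. Pregnancy and lactation passed on the lower dose in both groups. The labels do not say which mice were littermates, so p-values measure the spread between these mice.

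Microglia are the resident macrophages of the brain. They arise from the yolk sac, depend on signalling through the receptor CSF1R, and survey the tissue with motile processes, removing dying cells and synapses. Many of the genes that mark them encode surface receptors for neuronal signals, complement proteins, and activating receptors that pass their signal through the adaptor TYROBP. In RNA of whole tissue, fewer microglia and less of a transcript per microglial cell cannot be told apart.

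Reads on genes ranged from 11737554 to 44447006 per mouse, so that 3 counts stand for 0.0675 to 0.256 CPM (counts scaled to a common library size). Values per mouse are CPM after scaling of the libraries by the trimmed mean of M values (TMM). The 31 genes together took 585.8 to 690.7 CPM in the CD mice and 600.4 to 668.4 CPM in the FD mice. Their counts per mouse ran from 23 to 89 for Spi1, the least counted, up to 1096 to 3889 for Csf1r, the most counted. Xist counts were between 7426 and 30462 in the mice labelled female and between 6 and 27 in those labelled male, in keeping with the labels. Markers of other leukocytes were scarce in the same libraries. Of 12 genes of T, B and NK cells, 7 had too few counts to be tested (Cd3e, Cd3d, Cd3g, Cd2, Cd8a, Ms4a1 and Nkg7). The 5 tested took 2.30 to 3.73 CPM together. Of 10 genes of circulating monocytes and neutrophils, 6 were not tested for the same reason, among them Ly6c2, S100a8 and Ly6g. The 4 tested took 0.200 to 1.06 CPM together. Macrophages at vessels, meninges and choroid plexus express many of the same genes as microglia, and 10 genes that mark them took 4.13 to 11.1 CPM in the CD mice and 4.84 to 20.2 CPM in the FD mice.

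Levels of different genes were compared per kb of annotated exon. Ctss, a lysosomal cysteine protease, had the highest mean level with 43.5 CPM per kb, followed by the complement chains C1qb with 29.8 and C1qa with 26.4 CPM per kb. P2ry12, the ADP receptor that guides microglial processes, had 17.2 CPM per kb, and Csf1r had 15.6. At the low end were Ptprc, which encodes the leukocyte phosphatase CD45, with 0.179 CPM per kb, the transcription factors Irf8 with 0.572 and Spi1 with 0.823, and Hpgds, a prostaglandin D synthase, with 0.849. The length chosen mattered for genes with long alternative exons. Trem2 had 2.09 CPM per kb of all annotated exon and 9.48 CPM per kb of its principal transcript, which moved it from rank 25 to rank 11 of the 31, whereas Ctss, C1qb and C1qa kept the first 3 ranks on both scales.

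**Figure D1:**
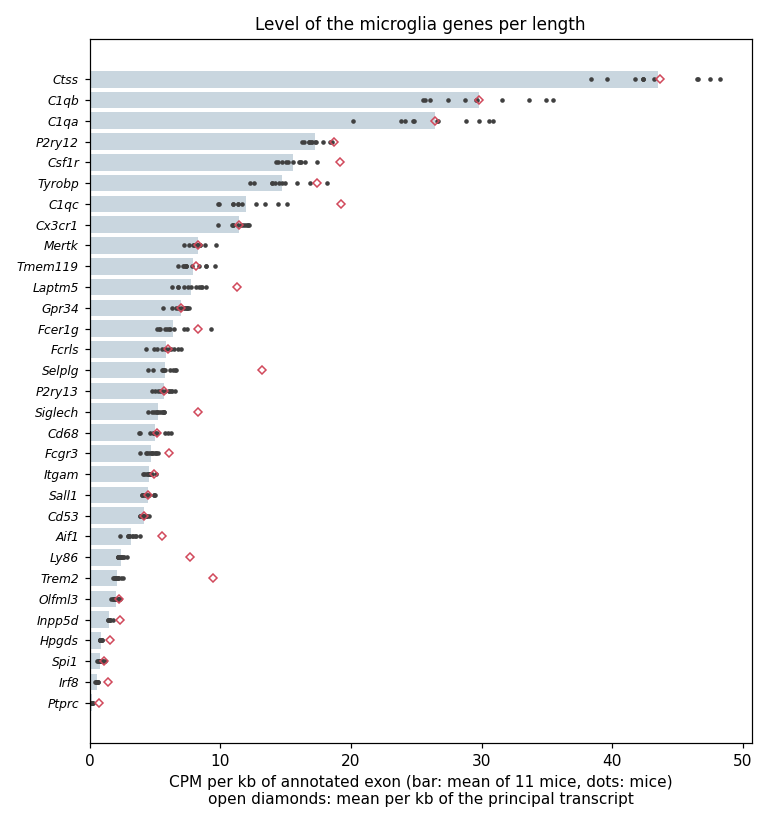
Level of the 31 microglia genes per length. The x axis gives CPM per kb of annotated exon (bars, mean of 11 mice; dots, single mice) and open diamonds give the mean per kb of the principal transcript; Ctss leads on both scales with 43.5 and 43.6, and the diamond of Trem2 lies far to the right of its bar.

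The 3 C1q genes, which encode the chains of the molecule that starts the classical complement cascade, lie side by side on the minus strand of chromosome 4 (GRCm38), C1qb at positions 136880129 to 136886187, C1qc at 136889804 to 136893065 and C1qa at 136895917 to 136898803. PU.1, the product of Spi1, is the transcription factor on which the macrophage lineage depends, and the letters GAGGAAGT of its binding motif were searched on both strands of the RefSeq promoters (GRCm38.p6), taken from 250 bases before to 50 bases after the start of each gene. Of the 31 genes, 24 had an entry, and 7 did not (Csf1r, C1qa, Selplg, Tmem119, Spi1, Gpr34 and Tyrobp). The letters were found in 5 of these 24 promoters (20.83%; C1qc, Ctss, Cd53, Inpp5d and Hpgds), against 3.69% of the promoters of 27025 genes. The composite ETS-IRF motif, which shares the letters GGAA with that of PU.1, was in 1 of the 24 (4.17%; Cd68) against 3.16% of all. The MEF2 motif CTAAAAATA was in 0 of the 24 against 0.59% of all. Matches are given as a description and are not known binding sites in these samples. Stretches of 100 bases around the matches that lie before the start of C1qc and of Inpp5d, which encodes the phosphatase SHIP1, are shown as the feature that some members share, with the match in capitals. The matches of Ctss and Cd53 do not lie wholly before the start, and the stretch around that of Hpgds lies at least in part within annotated exons. On the minus strand the C1qc stretch is chr4:136893056-136893155, with the match on the strand opposite to the gene, 195 bases before the RefSeq start, and its 3′ end reaches into the first exon of the GENCODE model, which begins at 136893065. The Inpp5d stretch is chr1:87620212-87620311 on the plus strand, where the match begins 20 bases before the start.
C1qc: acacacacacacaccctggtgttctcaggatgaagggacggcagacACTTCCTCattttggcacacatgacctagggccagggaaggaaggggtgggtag
Inpp5d: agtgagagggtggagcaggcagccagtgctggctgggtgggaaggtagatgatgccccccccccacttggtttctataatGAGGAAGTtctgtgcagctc

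The first question was whether the dams' diet before conception was followed by a difference of microglia genes in the offspring hippocampus. None was detected at this depth and group size. In the quasi-likelihood test of edgeR, with Benjamini-Hochberg adjusted p over all genes, 0 of the 31 genes passed an adjusted p of 0.1 in FD against CD mice, where 0.068% of all genes did (14 genes, all higher in FD). At an unadjusted p under 0.05 the count was 0 of 31, against 2.59% of all genes, DESeq2 called 0, and in 0 of 31 did the values of the groups fail to overlap, against 0.505% of all genes. With a replicate block over the same-numbered mice, 0 members passed as well, against 0.114% of all genes (23 genes). Log2 fold changes (FD minus CD) ran from -0.13 for Fcer1g to 0.08 for Fcgr3, with 12 above 0, 19 below 0 and a median of -0.02, and the median of all genes tested was -0.0040. Log2 fold changes are given ± their SE throughout.

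What the data could have shown is set by the intervals of these differences. The standard errors of the 31 log2 fold changes ran from 0.052 to 0.165, with a median of 0.090. For 16 of the 31 genes the 95% interval lay within 0.25 of 0 on the log2 scale. The most distant bounds were -0.43 for Fcer1g and 0.32 for Spi1, so that larger differences than these were outside the interval of every member.

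**Figure D2:**
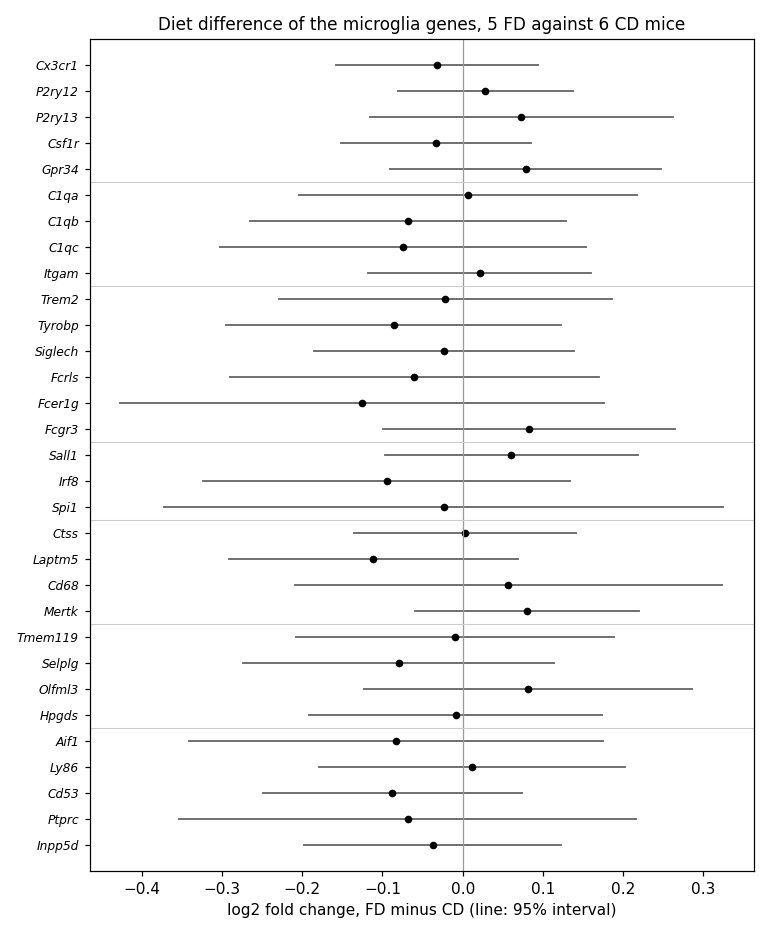
Difference between FD and CD mice for the 31 microglia genes, ordered by role. The x axis gives the log2 fold change, points are edgeR estimates from 5 FD and 6 CD mice, lines are 95% intervals and horizontal rules part the roles; every interval holds 0, and the estimates lie between -0.13 and 0.08.

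The receptors by which microglia sense neurons and nucleotides had log2 fold changes from -0.03 to 0.08 over 5 genes. Cx3cr1, the receptor for the neuronal chemokine fractalkine, had 54.5, 49.04 and 52.2 CPM in the FD females and 53.6 and 44.2 CPM in the FD males, and the CD mice ran from 49.4 to 54.99 CPM with a median of 52.1. The FD male 2 value was the lowest of all 11 mice and the other FD values lay inside the CD range or just below it, with a log2 fold change of -0.03 ± 0.059. P2ry12 had 43.1, 47.3 and 43.4 CPM in the FD females and 42.8 and 45.5 CPM in the FD males, and the CD mice ran from 41.5 to 46.9 CPM with a median of 43.4. FD female 2 lay just above the CD range and the other FD values inside it. P2ry12 was the steadiest of the receptors, with a highest mouse 1.14 times the lowest and a log2 fold change of 0.03 ± 0.052. P2ry13, a related ADP receptor, had 15.3, 16.5 and 15.3 CPM in the FD females and 13.5 and 13.2 CPM in the FD males, and the CD mice ran from 11.97 to 15.8 CPM with a median of 14.3. FD female 2 was again the highest mouse, the other FD values lay inside the CD range, and the log2 fold change was 0.07 ± 0.089. Csf1r, the receptor for CSF1 and IL-34, had 89.8, 83.5 and 92.5 CPM in the FD females and 93.2 and 84.98 CPM in the FD males, and the CD mice ran from 82.2 to 100.3 CPM with a median of 90.7. All 5 FD values of Csf1r fell inside the CD range, and its log2 fold change was -0.03 ± 0.056. Gpr34, a lysophosphatidylserine receptor, had 13.1, 15.9 and 15.2 CPM in the FD females and 15.6 and 15.6 CPM in the FD males, and the CD mice ran from 11.7 to 15.7 CPM with a median of 14.4. Both FD males and FD females 2 and 3 were near the top of the CD range for Gpr34 or above it and FD female 1 was lower, with a log2 fold change of 0.08 ± 0.080 and an unadjusted p of 0.34.

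None of the 4 complement genes passed the test of diet, and their log2 fold changes lay between -0.07 and 0.02. C1qa had 29.9, 25.8 and 31.8 CPM in the FD females and 25.1 and 24.8 CPM in the FD males, and the CD mice ran from 20.99 to 32.1 CPM with a median of 27.7. C1qb had 32.2, 31.3 and 37.97 CPM in the FD females and 27.9 and 28.4 CPM in the FD males, and the CD mice ran from 27.8 to 38.6 CPM with a median of 33.3. C1qc had 24.6, 21.2 and 25.96 CPM in the FD females and 21.1 and 19.2 CPM in the FD males, and the CD mice ran from 18.98 to 29.2 CPM with a median of 22.3. In all 3 genes every FD value lay inside the CD range, the FD males were the lowest of the FD mice and FD female 3 the highest, and the log2 fold changes were 0.007 ± 0.0997, -0.07 ± 0.093 and -0.07 ± 0.108. The ratio of the chains varied less than their level, with C1qb at 1.18 ± 0.066 times the CPM of C1qa (SD, n = 11) and a range of 1.08 to 1.32. Itgam, the alpha chain of complement receptor 3, had a log2 fold change of 0.02 ± 0.066 and 20.7 to 25.6 CPM over all mice. Its value is uncertain, since 68.67% of its exon bases are shared in GENCODE M21 with the gene model Gm49368 on the same strand and reads in shared bases may have been left uncounted.

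Among TREM2, the Fc receptors and their adaptors, 5 of 6 log2 fold changes were below 0 and none passed the test. Trem2, a lipid receptor, had 9.94, 9.44 and 10.8 CPM in the FD females and 10.1 and 10.7 CPM in the FD males, and the CD mice ran from 8.67 to 12.5 CPM with a median of 10.1. Tyrobp, the adaptor through which TREM2 signals, had 10.6, 9.29 and 9.69 CPM in the FD females and 9.33 and 8.41 CPM in the FD males, and the CD mice ran from 8.201 to 12.1 CPM with a median of 9.89. The FD values of both genes lay within the CD range, with log2 fold changes of -0.02 ± 0.098 and -0.09 ± 0.099. Fcer1g, the signalling chain shared by Fc receptors, had 5.67, 5.33 and 6.29 CPM in the FD females and 4.52 and 4.74 CPM in the FD males, and the CD mice ran from 4.66 to 8.104 CPM with a median of 5.27. FD male 1 lay just below the CD range, the top value, in CD female 1, stood well above the other 10 mice, and its log2 fold change of -0.13 ± 0.143 was the lowest of the 31. Fcgr3, an IgG Fc receptor with close paralogs, had 8.81, 7.54 and 8.32 CPM in the FD females and 9.14 and 8.27 CPM in the FD males, and the CD mice ran from 6.66 to 8.76 CPM with a median of 8.04, with a log2 fold change of 0.08 ± 0.086. FD female 1 and FD male 1 exceeded every CD mouse for Fcgr3, and the other FD values lay among the CD values. The log2 fold changes of Siglech, a sialic acid-binding lectin, and Fcrls, an Fc receptor-like protein, were -0.02 ± 0.077 and -0.06 ± 0.109.

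The 3 transcription factors of the list had log2 fold changes between -0.09 and 0.06. Sall1, which maintains microglial identity, had 26.1, 23.7 and 21.1 CPM in the FD females and 25.9 and 22.8 CPM in the FD males, and the CD mice ran from 20.9 to 26.2 CPM with a median of 22.7. Spi1 had 2.15, 3.198 and 2.15 CPM in the FD females and 1.904 and 1.63 CPM in the FD males, and the CD mice ran from 1.75 to 2.67 CPM with a median of 2.23. Irf8, a partner of PU.1, had 4.07, 2.97 and 4.14 CPM in the FD females and 3.86 and 4.24 CPM in the FD males, and the CD mice ran from 3.69 to 4.66 CPM with a median of 4.15. For Spi1 the highest and the lowest of the 11 mice were both FD mice (female 2 and male 2), and for Irf8 FD female 2 was the lowest mouse. The log2 fold changes were 0.06 ± 0.074 for Sall1, -0.02 ± 0.165 for Spi1 and -0.09 ± 0.108 for Irf8.

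The genes of phagocytosis and the lysosome included the smallest p of the list. Laptm5, a lysosomal membrane protein of blood-derived cells, had 31.8, 25.7 and 32.7 CPM in the FD females and 25.8 and 23.9 CPM in the FD males, and the CD mice ran from 27.5 to 33.7 CPM with a median of 30.2. FD males 1 and 2 and FD female 2 lay below every CD mouse, and FD females 1 and 3 lay in the upper part of the CD range. The log2 fold change was -0.11 ± 0.085, with an unadjusted p of 0.21 and an adjusted p of 1.0 by edgeR, and with the replicate block it was -0.14 ± 0.064 (SE) with an unadjusted p of 0.043 and an adjusted p of 0.72, where 6.76% of all genes had an unadjusted p under 0.05. Mertk, a receptor for the engulfment of dying cells that astrocytes also express, had 31.4, 41.95 and 36.6 CPM in the FD females and 38.3 and 36.7 CPM in the FD males, and the CD mice ran from 32.8 to 36.1 CPM with a median of 35.01. Its FD values reached both higher and lower than the CD values, with FD female 1 lowest and 4 of 5 FD mice above the highest CD mouse, and the log2 fold change was 0.08 ± 0.066 with an unadjusted p of 0.24. Ctss and Cd68, a lysosomal glycoprotein, had log2 fold changes of 0.0026 ± 0.066 and 0.06 ± 0.126.

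The homeostatic surface and secreted proteins had log2 fold changes between -0.08 and 0.08. Tmem119, a surface protein that parts microglia from other macrophages, had 19.5, 16.6 and 20.6 CPM in the FD females and 17.1 and 17.1 CPM in the FD males, and the CD mice ran from 15.6 to 22.2 CPM with a median of 17.6. All FD values lay inside the CD range, with a log2 fold change of -0.01 ± 0.094. Selplg, the ligand of P-selectin, had 27.9, 23.9 and 24.1 CPM in the FD females and 23.6 and 19.2 CPM in the FD males, and the CD mice ran from 20.7 to 28.2 CPM with a median of 25.5. FD male 2 was the lowest of the 11 mice, and the difference was -0.08 ± 0.092. Olfml3, a secreted glycoprotein, had 12.7, 14.5 and 12.01 CPM in the FD females and 10.8 and 13.8 CPM in the FD males, and the CD mice ran from 10.3 to 13.8 CPM with a median of 12.2. FD female 2 was above every CD mouse and the other FD values lay within the CD range, with a log2 fold change of 0.08 ± 0.097. Hpgds had -0.0085 ± 0.086.

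Genes shared by many leukocytes closed the list, 4 of 5 with a log2 fold change below 0. Cd53, a tetraspanin, had 6.66, 6.78 and 7.08 CPM in the FD females and 7.47 and 6.999 CPM in the FD males, and the CD mice ran from 7.16 to 7.92 CPM with a median of 7.39. Of the 5 FD mice 4 lay below the lowest CD mouse, yet the whole range over 11 mice was only from 6.66 to 7.92 CPM, and the log2 fold change was -0.09 ± 0.076 with an unadjusted p of 0.27. Aif1, which encodes the cytoskeletal protein IBA1, had 4.91, 4.49 and 4.64 CPM in the FD females and 4.47 and 4.596 CPM in the FD males, and the CD mice ran from 3.57 to 5.92 CPM with a median of 5.17. The FD values of Aif1 were close together inside a wide CD range, with a log2 fold change of -0.08 ± 0.122. Ptprc, Ly86 (a partner of a Toll-like receptor homologue) and Inpp5d had -0.07 ± 0.135, 0.01 ± 0.090 and -0.04 ± 0.076.

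**Figure D3:**
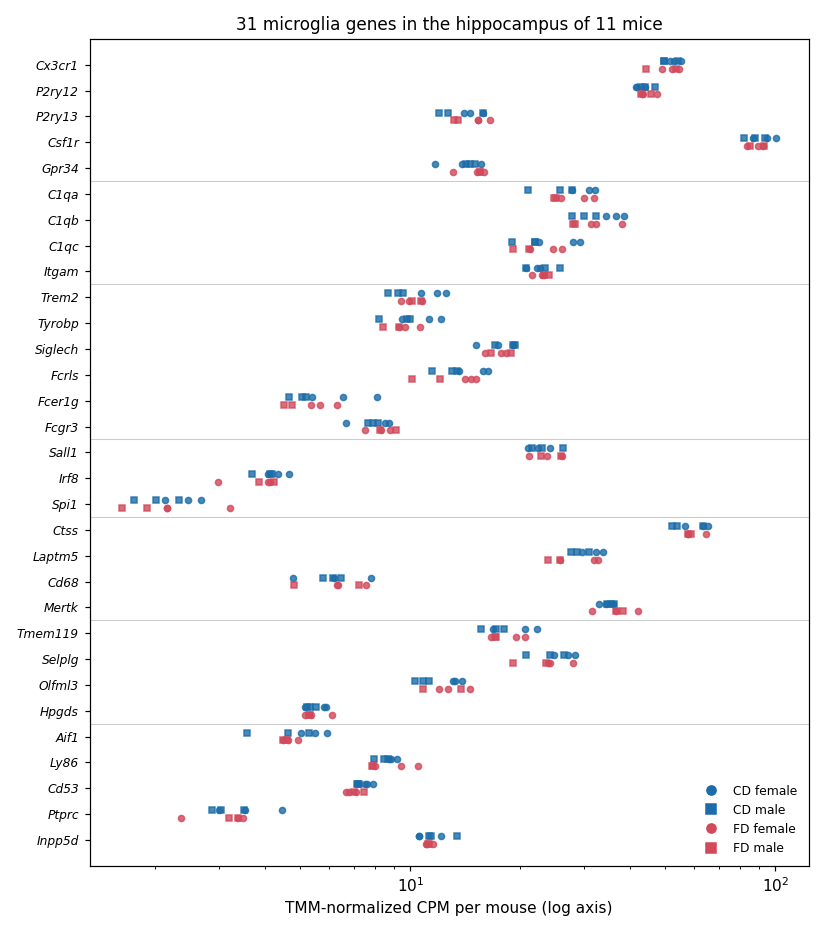
The 31 microglia genes in each of the 11 mice. The x axis gives TMM-normalized CPM on a log scale, blue marks CD and red FD mice, circles females and squares males, and rules part the roles; blue and red values overlap for every gene, and all squares lie left of all circles for Fcrls and Fcer1g.

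Variation among the mice differed from member to member. The coefficient of variation over the 11 mice ran from 4.38% for P2ry12 and 5.10% for Cd53 to 18.8% for Fcer1g and 19.97% for Spi1. The biological coefficient of variation, which edgeR estimates after counting noise and diet are accounted for, was 0.0688 for Cd53 and 0.0691 for Hpgds, lower than in all but 0.626% and 0.684% of genes of similar mean count. At the other end, C1qc had 0.124, C1qa 0.116 and C1qb 0.109, higher than in 91.95%, 90.3% and 88.1% of genes of similar mean. CD female 1 was the highest mouse for 11 of the 31 genes, FD female 2 for 8 and CD female 3 for 6. CD male 1 was the lowest mouse for 9 genes and FD male 2 for 5. The number of members above their own 11-mouse mean was 4 in CD male 1 and CD male 3, and 24 in CD female 3. It did not follow sex in every mouse, with 23 in CD male 2 and 13 in FD female 2.

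Since both groups held both sexes, the sexes were compared with diet as a covariate. The C1q genes, Fcrls and Fcer1g were lower in males by 0.27 to 0.41 on the log2 scale, and these 5 of the 31 genes were the ones to pass the threshold. None was higher in males. Over all genes 6.11% passed (1257 genes) and 3.03% passed as lower in males. At an unadjusted p under 0.05, 13 of 31 were lower in males, against 10.3% of all genes. The groups did not overlap for 2 of the 31, Fcrls and Fcer1g, against 0.729% of all genes. The median log2 fold change (male minus female) was -0.11 over the 31 genes, with 23 below 0, and -0.0045 over all genes.

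Male values are given for CD males 1 to 3 and then FD males 1 and 2. C1qa had 25.8 to 32.1 CPM in the 6 females (median 30.4) and 20.99, 27.8, 25.8, 25.1 and 24.8 CPM in the 5 males. C1qb had 31.3 to 38.6 CPM in the 6 females (median 35.5) and 27.8, 32.3, 29.8, 27.9 and 28.4 CPM in the 5 males. C1qc had 21.2 to 29.2 CPM in the 6 females (median 25.3) and 18.98, 21.9, 21.99, 21.1 and 19.2 CPM in the 5 males. Most males lay below most females in each, but CD male 2 and FD female 2 overlapped with the other sex in all 3. The log2 fold changes were -0.27 ± 0.075 for C1qa, -0.28 ± 0.062 for C1qb and -0.31 ± 0.076 for C1qc, with adjusted p of 0.079, 0.062 and 0.066 in the quasi-likelihood test of edgeR (Benjamini-Hochberg). Fcrls had 13.6 to 16.3 CPM in the 6 females (median 14.9) and 11.5, 13.4, 12.98, 12.1 and 10.1 CPM in the 5 males. Fcer1g had 5.33 to 8.104 CPM in the 6 females (median 5.98) and 5.05, 4.66, 5.17, 4.52 and 4.74 CPM in the 5 males. Every male lay below every female for these 2 genes, with log2 fold changes of -0.32 ± 0.076 and -0.41 ± 0.107 and adjusted p of 0.064 and 0.072 by edgeR. The next members by unadjusted p were Laptm5 at -0.21 ± 0.068, with an adjusted p of 0.11 by edgeR, and Tmem119 at -0.21 ± 0.078, with 0.14. Cx3cr1, Csf1r and Mertk had -0.07 ± 0.056, -0.05 ± 0.055 and 0.04 ± 0.064, P2ry12 had 0.03 ± 0.051 and Sall1 had 0.06 ± 0.072, none past the threshold.

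The sex difference went together with gene length in these libraries. Over the 13205 genes with an average log2 CPM above 1, cut into eighths of annotated exon length, the median log2 fold change (male minus female) climbed in steps from -0.13 in the shortest eighth (up to 2036 bp) to 0.11 in the longest (9495 bp and more). Of the members, 10 lay in the shortest eighth and 6 in the second, whose median was -0.08. C1qa (1040 bp), C1qb (1088 bp), C1qc (1931 bp) and Fcer1g (874 bp) were in the shortest eighth and Fcrls (2334 bp) in the second. Each of these 5 genes had a log2 fold change below the median of its eighth, which follows largely from their call as lower in males. Among the uncalled members of these 2 eighths, Aif1, Tyrobp, P2ry13, Tmem119 and Spi1 lay below it too. Ctss (-0.10), Cd68 (-0.11), Cd53 (-0.02) and Fcgr3 (0.01) in the shortest eighth lay above it. So did P2ry12 (0.03) and Gpr34 (0.08) in the second. Among long members, Ptprc (18313 bp, with a principal transcript of 4702 bp) had -0.11 ± 0.135 and Inpp5d (7602 bp) had 0.06 ± 0.075. Olfml3 (6161 bp) went against the trend of length, at -0.21 ± 0.082 in an eighth with a median of 0.03. Laptm5 (-0.21), Selplg (-0.20) and Cx3cr1 (-0.07) lay below the -0.02 of their eighth, Trem2 (-0.19) below -0.0007 and Ly86 (-0.15) below -0.05. Csf1r, Irf8, Hpgds and Ptprc lay below theirs too, and Siglech, Mertk, Itgam, Sall1 and Inpp5d above. The principal transcripts of Trem2 (1088 bp), Ly86 (1134 bp) and Selplg (1855 bp) are shorter than their annotated exon length.

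**Figure D4:**
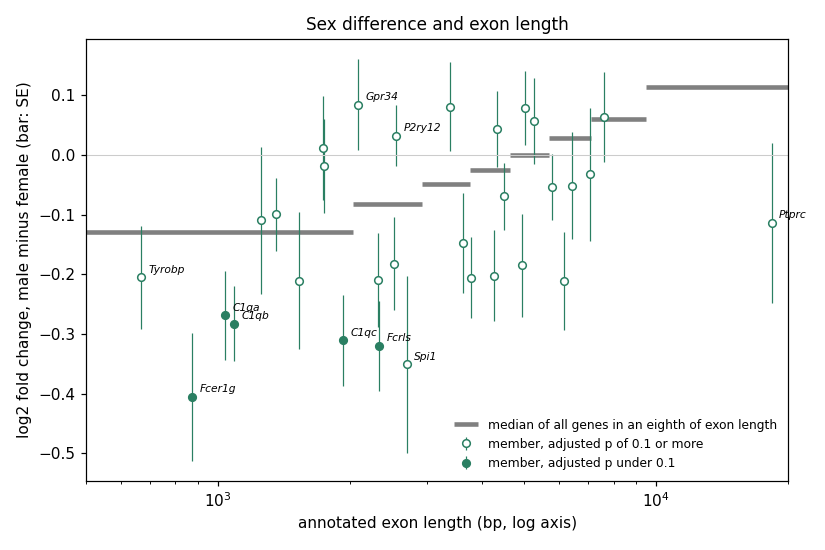
Log2 fold change between male and female mice against annotated exon length (log axis) for the 31 microglia genes. Circles are members with their standard error, filled where the adjusted p was under 0.1. Grey bars are medians of all genes in each eighth of length and climb from -0.13 to 0.11. The 5 filled circles, picked by their call, lie under the bars at lengths of 874 to 2334 bp. Open circles of like length lie on both sides.

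A short-gene excess was computed for each library as the median log2 deviation of genes in the shortest eighth minus that in the longest. It was between -0.148 and -0.0883 in the 5 males and between -0.114 and 0.31 in the 6 females, a difference of -0.22 (exact two-sided permutation test p = 0.017, adjusted p = 0.13 over 12 tests, smallest possible p 0.0043). Reads outside genes made up 10.2% ± 0.78 of reads in males (SD, n = 5) and 8.79% ± 1.198 in females (SD, n = 6), with an exact permutation p of 0.061 and an adjusted p of 0.24. Reads that fell on more than 1 gene were 1.402% ± 0.021 in males (SD, n = 5) and 1.46% ± 0.036 in females (SD, n = 6), with an exact permutation p of 0.022 and an adjusted p of 0.13. For the other 3 measures, total counts, reads with several alignments and the mitochondrial share, it ran from 0.082 to 0.61. Between FD and CD mice the exact permutation p of the 6 library measures ran from 0.46 to 0.92. The 3 libraries with the largest short-gene excess, CD female 1 (0.31), CD female 3 (0.268) and FD female 3 (0.189), were also the 3 with the most C1q, at 99.9, 95.4 and 95.7 CPM for the chains together. As all 5 males lay near the low end of the short-gene excess, sex and this measure cannot be fully told apart in these mice.

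With the short-gene excess as a further covariate, 0 of the 31 genes passed in the sex comparison (edgeR, where 8 genes or 0.0389% of all passed). An unadjusted p under 0.05 with lower values in males was found for 2, against 2.18% of all genes. These were Fcrls and Olfml3, the latter at -0.28 ± 0.119 (SE) with an unadjusted p of 0.027 by edgeR. The log2 fold changes became -0.08 for C1qa, -0.13 for C1qb, -0.06 for C1qc and -0.10 for Fcer1g, whereas Fcrls stayed at -0.35 ± 0.111 (SE) with an unadjusted p of 0.0050 and an adjusted p of 1.0. With the share of reads outside genes as covariate 0 of 31 passed too (9 genes or 0.0437% of all), 8 had an unadjusted p under 0.05 and were lower in males against 3.49% of all genes, and the 5 genes had -0.24 for C1qa, -0.24 for C1qb, -0.21 for C1qc, -0.19 for Fcer1g and -0.35 for Fcrls. DESeq2 called 6 members, the same 5 and Laptm5, and 1445 of all genes. Without diet as a covariate 0 members and 37 of all genes passed by edgeR. These p-values take the 11 mice as independent, which they may not be. Deviations of CD and FD mice of the same sex had a mean correlation of 0.28 between different numbers. It was 0.47 in pairs of the same number, and the difference was not tested. With the counts of each such CD and FD pair summed (3 female and 2 male pairs, without CD male 3), 0 of 31 passed by edgeR (5 genes or 0.0247% of all), 7 had an unadjusted p under 0.05 and were lower in males against 6.23% of all genes, and the 5 genes had log2 fold changes of -0.28 for C1qa, -0.27 for C1qb, -0.31 for C1qc, -0.33 for Fcrls and -0.39 for Fcer1g, each with an adjusted p of 0.39. The count of members was also decided by single mice, and the count over all genes moved with it. Without CD female 1, CD female 3, CD male 1, CD male 2, FD female 3 or FD male 2, 0 members passed (18 to 47 of all genes). Without FD female 1 it was 1 member (142 of all genes). It was 3 without CD male 3 (363 of all genes) or FD male 1 (590). It was 7 without FD female 2 (2762 of all genes) and 9 without CD female 2 (3244). The sign of the 5 genes was negative in each of these fits.

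**Figure D5:**
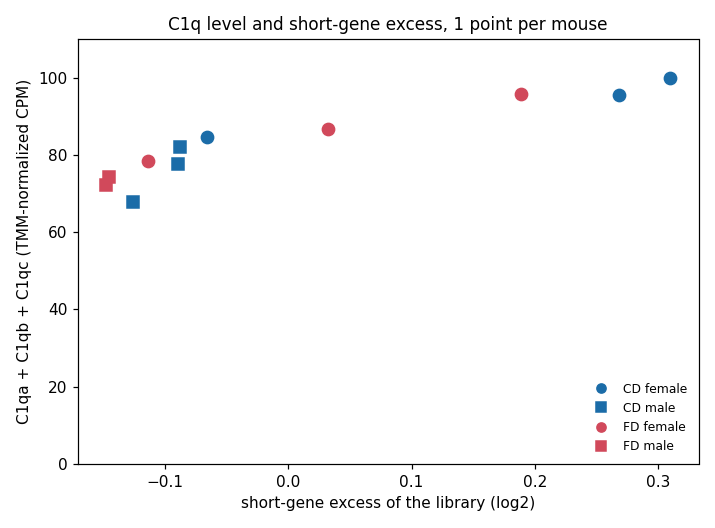
C1q and the short-gene excess in each mouse. The x axis gives the short-gene excess of the library (log2) and the y axis the summed CPM of C1qa, C1qb and C1qc, blue for CD and red for FD mice, circles for females and squares for males; males lie at the left between 67.8 and 82.0 CPM, and the 3 females at the right have the 3 highest sums.

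Whether the diet difference itself differed between the sexes was tested by the interaction of diet and sex. By edgeR 0 of 31 genes passed, as did 0.0% of all genes, and 1 member had an unadjusted p under 0.05, against 1.9% of all genes. This was Trem2, with an interaction of 0.40 ± 0.155 (SE), an unadjusted p of 0.020 and an adjusted p of 1.0. Trem2 had 8.67, 9.53 and 9.28 CPM in the CD males and 10.1 and 10.7 in the FD males, against 11.8, 10.7 and 12.5 in the CD females and 9.94, 9.44 and 10.8 in the FD females. FD males lay above the CD males, FD females lay mostly below the CD females, and the unadjusted p is that of 1 gene among the 31.

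Other genes of the pathways in which these genes act were compared in the same FD against CD fit, and 0 passed in each of the lists. Of 13 complement partners of C1q, 8 had a log2 fold change above 0, with a median of 0.09. The smallest unadjusted p were those of C5ar1, a receptor for the fragment C5a, at 0.63 ± 0.328, and of Serping1, the inhibitor of C1, at 0.43 ± 0.238, both over 0.05. C5ar1 had only 4 to 18 counts per mouse. C4b, the component that C1 cleaves, had -0.08 ± 0.091 and C3 had 0.16 ± 0.258. Of 12 ligands that other cells make for microglial receptors, 7 were below 0 with a median of -0.02. Cx3cl1, the ligand of CX3CR1, had -0.07 ± 0.066, and Csf1 and Il34, the ligands of CSF1R, had -0.03 ± 0.065 and -0.03 ± 0.059. Of 10 genes of signalling downstream of TYROBP and Fc receptors, 7 were above 0 with a median of 0.03, with Syk, the kinase that binds these adaptors, at 0.05 ± 0.117. Of 7 further purinergic receptors and ectonucleotidases the smallest unadjusted p was that of P2ry6, a UDP receptor, at -0.24 ± 0.120 with an unadjusted p of 0.059 and an adjusted p of 1.0 by edgeR's quasi-likelihood test. Entpd1, the ectonucleotidase CD39, followed at 0.16 ± 0.086. Of 20 further genes of the homeostatic microglia signature 19 were tested with a median of 0.02. These 19 took 1217 to 1509 CPM together, and the part of other cells in this sum was not tested. In the sex comparison of this list Tgfbr1, a TGF-beta receptor, was higher in males (0.23) and Cst3, a protease inhibitor, was lower (-0.21), with adjusted p of 0.091 and 0.093 by edgeR.

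Among the lists of microglial genes, an unadjusted p under 0.05 was found for 3 genes of the activated and cytokine lists, each higher in FD mice with an adjusted p of 1.0 by edgeR. Over all genes 2.59% had such a p, and most of those (398 of 534) were also higher in FD, or 1.93% of all genes. The 20 genes of activated or disease-associated microglia took 2412 to 3032 CPM together, with Apoe at a mean of 983.8 CPM in CD mice. Apoe and Csf1 are also among the ligands that other cells make, and the part of other cells in this sum was not tested. Of these 20 genes, 14 had a log2 fold change below 0, with a median of -0.04. The smallest unadjusted p was that of Spp1, osteopontin, at 0.98 ± 0.423 with an edgeR p of 0.034 before adjustment. Its FD values of 1.76 to 14.2 CPM overlapped with the CD values of 1.40 to 4.74. Of 16 cytokine and inflammasome genes 15 were tested (Il6 was not), with a median of 0.04. Nlrp3, the sensor of an inflammasome, had 1.02 to 1.57 CPM in the FD mice and 0.582 to 0.942 CPM in the CD mice, with 7 to 39 counts per mouse. All FD mice lay above all CD mice, as they did for 0.403% of all genes, and the log2 fold change was 0.61 ± 0.188 with an unadjusted p of 0.0045. Il1a, an interleukin, had 0.55 ± 0.245 with an edgeR p of 0.038 before adjustment, overlapping groups and 7 to 30 counts per mouse. Of the 10 genes of border macrophages, 9 had a log2 fold change above 0 with a median of 0.36, none with an unadjusted p under 0.05, and among monocyte genes Ccr2 had 1.45 ± 0.499 with an edgeR p of 0.010 before adjustment, from 1 to 14 counts per mouse. Choroid plexus genes had a median of -0.25 with sums of 36.0 to 90.7 CPM in CD and 30.9 to 44.2 CPM in FD mice, and with the replicate block 2 of them, Ttr and Clic6, passed as lower in FD. The part of these cells in the values of the microglia genes was not tested.

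Some positions bear on how the counts may be read, since the strand setting of the counting is not given in the sources used here. P2ry13 lies within an intron of Med12l, Gpr34 within an intron of Cask and Irf8 within an intron of Gm20388 in GENCODE M21. Exons of Csf1r overlap over 15.12% of their bases with Hmgxb3 on the opposite strand, those of Cx3cr1 over 1.73% with Gm33858 and those of P2ry12 over 9 bases with Med12l. The other members apart from Itgam shared 0 exon bases with another gene.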

How the data were processed

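RNA of whole hippocampus from 11 mice was read as single-end libraries. Per the paper's methods and the labels, the authors removed adapters and poor bases, mapped reads to the mouse genome mm10 (GRCm38) by STAR and counted unique alignments per gene with featureCounts, and they deposited raw counts for each mouse. The 5 summary lines that follow the genes in each table, from which the shares of reads outside genes and on several genes were taken, have the form that HTSeq writes, so which counter made the tables is uncertain. The annotation release and strand setting are not given in the sources used here.

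The tests were run in edgeR 4.0.16 (R 4.3.3). Genes needed 10 counts or more summed over the mice, libraries were scaled by TMM, and quasi-likelihood tests with Benjamini-Hochberg adjustment over all genes at 0.1 compared FD with CD mice (no covariate), males with females (diet as covariate) and their interaction. The summary lines, which name no gene, entered neither library sizes nor tests. Reads outside genes made up 7.01% to 11.0% of reads. An SE is the size of the log2 fold change divided by the square root of F. Library measures were compared by exact permutation over 462 splits. Identifiers were matched to GENCODE M21, which held 94.9% of the table's genes. DESeq2 1.42.0 and other filters, scalings, covariates, sexes alone and leaving out each mouse were alternatives. The covariates share of reads outside genes and short-gene excess, and the sums over same-numbered pairs, were chosen after seeing the data. Replicates of a group were separate libraries, since the counts of any pair differed by 4.13 to 28.2 times the sampling noise (chi-square per degree of freedom, 25 pairs).

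Deviations of mice of the same sex and number in the 2 groups had correlations of 0.37 to 0.60 in 5 pairs (mean 0.47). In 10 pairs of the same sex and other numbers they were -0.046 to 0.59 (mean 0.28), and the difference was not tested. A replicate block was therefore fitted, without CD male 3, which has no partner. What the numbers stand for is not stated. The members, gene lists and motifs were chosen with earlier results of these data known. Values per mouse are given for members called in a contrast, those with the smallest p and defining markers. Genes named from other lists had the smallest p or were called, and C4b, C3, Csf1, Il34 and Syk were chosen after their values were seen. Protein sequences were planned and are not used here. Scripts were tested on simulated data in R, and Python 3.11.15 with pandas 2.3.3 served for the remaining tables.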

Additional observations from a re-analysis of the deposited data

Results flagged for a closer look

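In 62 groups of 5 or 6 mice (31 genes in CD and in FD), the gap between an extreme mouse and its nearest neighbour was tested against the range of the group by Dixon's 95% critical value (0.71 for 5 mice and 0.625 for 6), which chance passes in about 1 of 20 groups. It was passed in 4 groups, all of them FD. Ctss in FD female 3 was 64.5 CPM, with the other 4 FD mice between 57.5 and 58.6 CPM. Gpr34 in FD female 1 was 13.1 CPM, with the others between 15.2 and 15.9 CPM. FD female 2 was set apart in 2 genes in opposite directions, with Ptprc at 2.36 CPM below the 3.18 to 3.48 CPM of the others and Hpgds at 6.09 CPM above their 5.13 to 5.35 CPM. The values of Ctss and Gpr34 lay within the range of the CD mice, and those of Ptprc and Hpgds outside it.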

How the results depend on the processing

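In FD against CD, 0 of 31 members passed in all of 22 alternatives, and 0 passed for the interaction in 16 fits. The median of the members stayed within the spread between mice and ran from -0.056 to 0.010 on the log2 scale when 1 mouse was left out. Of the members, 10 kept 1 sign in every fit and 21 changed sign in at least 1, none being called in any. The count over all genes, 14, was 1 with at least 10 counts in every mouse, 1 in females alone, 2 in males alone, 8 with filterByExpr, 5 at an adjusted p under 0.05, 22 with the share of reads outside genes and 28 with the short-gene excess as covariate (both added after seeing the data), and 3 to 12 leaving out 1 mouse. In the paired fit with the replicate block it was 23, and the block changed no call of a member. In males against females, 5 members passed, 0 without the diet covariate, 0 with each of the added covariates, 0 with counts summed over each same-numbered pair (also added after seeing the data) and 0 to 9 leaving out 1 mouse. The count over all genes fell and rose too. It was 1257, 37 without the diet covariate, 9 and 8 with the added covariates, 5 with summed pairs and 18 to 3244 leaving out 1 mouse. The replicate block itself cannot be used for this contrast, as sex does not vary within a pair. The cause of these changes was not tested, and the fits that left some mice out also had fewer mice. Depth limits Spi1 and Ptprc most, with at least 23 and 31 counts per mouse.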
